A study of Drosophila melanogaster with 5 samples.

Results

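The genes described here encode core and closely associated proteins of the spliceosome of Drosophila melanogaster, followed across 5 microarrays of cells sorted as neurons. Members were chosen by gene symbol: a probe set belongs if the array's annotation gives it a single symbol that starts with Sf3a, Sf3b, Prp and a digit, snRNP-U, LSm and a digit, or U2af, or that is one of a fixed set of names such as SmB, SF2 or tra2. This found 36 probe sets for 33 genes, of 13966 probe sets and 10844 genes in all. SmG, x16 and snf, which the rule also lists, have no probe set under a single symbol here and were not analysed. No measured value enters the rule, but the list was selected on earlier results of the comparison between larval brain and embryo culture. The differences between these groups are therefore a description of the members, and no count of members is a test of the list.

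Both groups hold total RNA of cells that a cell sorter picked as neurons for green fluorescent protein (GFP). GFP was expressed through UAS-GFP under a Gal4 driver with a 7.4 kb fragment of the choline acetyltransferase gene Cha. The sort does not show that every cell was a neuron, and markers of other cell types are given below. Embryo culture is cells grown from embryos (4 arrays, replicates a to d). Larval brain is dissociated tissue (1 array, replicate a). The labels give no age, strain or time in culture, and they leave unstated if arrays a to d stem from different cultures. The SD and every p-value therefore cover the spread among these arrays alone, which may be technical.

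The spliceosome removes introns from newly made messenger RNA. Its building blocks are small nuclear ribonucleoproteins (snRNPs), each a small nuclear RNA held by a ring of Sm proteins, or of LSm proteins in the case of U6, together with proteins particular to that snRNP. U1 recognises the start of an intron, and SF1 and U2AF recognise the branch point and the intron's end before U2, with its SF3a and SF3b complexes, takes over the branch point. Prp proteins, named after yeast mutants in precursor RNA processing, join and rearrange the later complexes. SR proteins bind exons and help to choose splice sites, and neurons of animals are known for extensive alternative splicing.

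Values are signal intensities as the authors scaled them, and each probe set is compared only with itself across arrays. Differences are larval brain minus embryo culture on a log2 scale after adding 47.4, with a standard error (SE) from limma. The larval brain group has 1 array and is assumed to vary like embryo culture. Background was taken as the highest signal of 23 control probe sets for sequences foreign to the fly, and lay at 148, 200, 119 and 271 for embryo culture (a to d) and at 82.6 for larval brain. In bulk RNA, more cells with a transcript and more transcript per cell cannot be told apart.

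Of the 33 genes, 31 had a positive difference and 26 lay higher on the larval brain array than on every embryo culture array. Over all genes 46.3% had a positive difference and 26.2% lay above every embryo culture array. The median difference of the members was 1.33, with quartiles of 0.92 and 1.53, against a median of -0.07 over all genes. A difference above 1 was seen for 23 members, or 69.7%, and for 13.5% of all genes. Only Prp4k lay below every embryo culture array, as did 29.6% of all genes, and 6 members lay within the embryo culture range. These counts are given for orientation, since the list was selected with this comparison known.

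**Figure D1:**
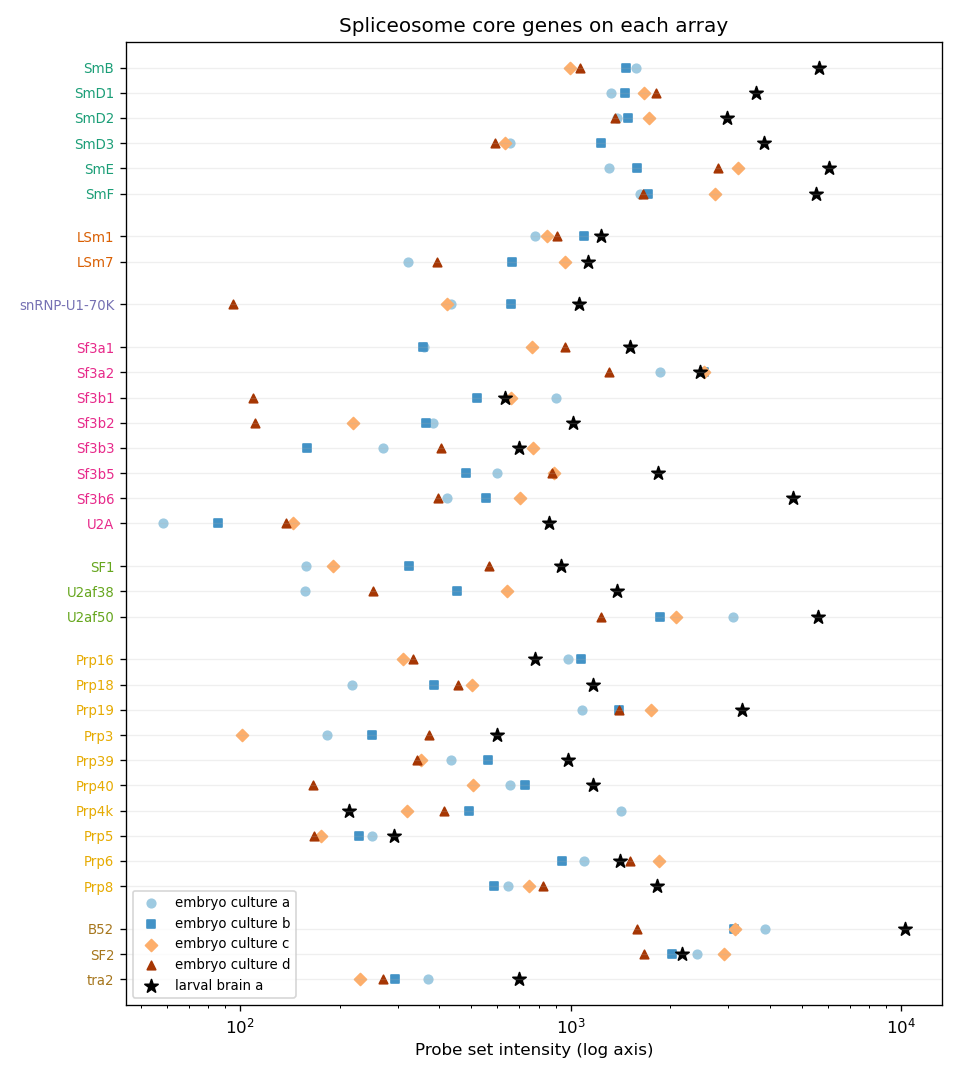
Probe set intensity (log axis) of the 33 spliceosome core genes on each array, with 1 probe set per gene and gene names coloured by role. The star of the larval brain array lies to the right of all 4 embryo culture symbols for 26 genes and to the left of them for Prp4k alone.

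At an adjusted p under 0.05 over all probe sets, limma placed 3 members higher in larval brain, Sf3b6, SmB and SmD3, where 0.812% of all genes passed in that direction. It placed 0 members lower, where 2.78% of all genes passed. At an unadjusted p under 0.05, 19 members were higher and 0 were lower. Over all 10844 genes 1865 had such a p, of which 913, or 8.42% of all genes, were higher and the rest lower. The call of Sf3b6 held in each of 13 alternative fits, with adjusted p-values up to 0.0266. SmB lost its call in 2 of them, with values up to 0.0741, and SmD3 in 4, with values up to 0.0874. Without embryo culture array d, Sf3b6 alone passed. With array a or c left out, Sf3b6 and SmB passed and SmD3 did not.

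**Figure D2:**
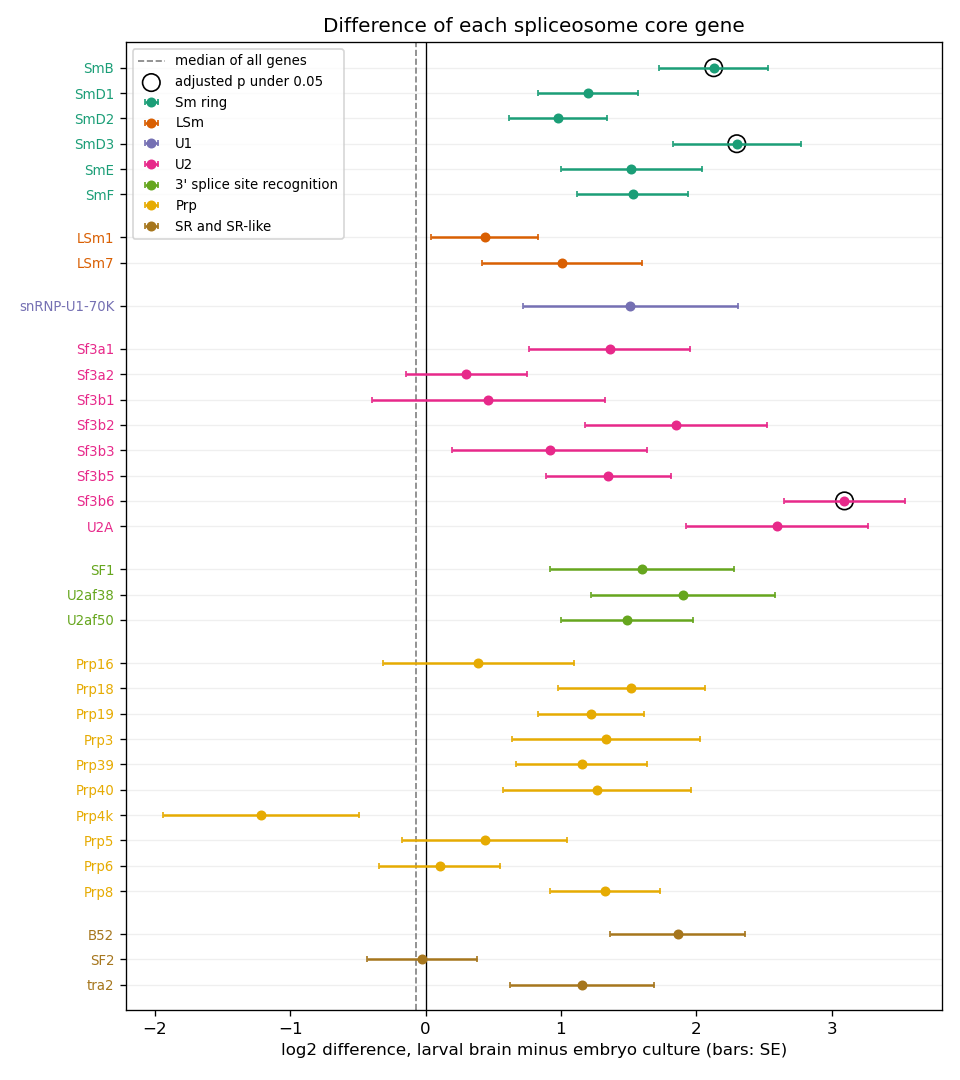
log2 difference of each member with its SE as a bar, coloured by role. Rings mark the 3 genes past the threshold, and the dashed line is the median of all genes, -0.07.

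The Sm ring proteins form the core of the U1, U2, U4 and U5 snRNPs, and all 6 measured genes stood higher on the larval brain array than on any embryo culture array, with a median difference of 1.53. SmB had intensities of 1576, 1474, 997 and 1064 in embryo culture (arrays a to d) and 5646 in larval brain. The highest embryo culture array was 1.58 times the lowest, and larval brain was 3.58 times the highest. Its embryo culture mean was 1278 ± 290 (SD, n = 4), and the difference was 2.13 ± 0.40 (SE), with an adjusted p of 0.0239. SmD3 read 657, 1232, 634, 589 and 3846 in the same order, a difference of 2.30 ± 0.47 with an adjusted p of 0.0341. Array b stood apart from the other embryo culture arrays for SmD3, and larval brain was still 3.12 times as high as b.

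The other Sm genes did not pass the threshold. SmE had 1310, 1589, 3197 and 2798 on arrays a to d and 6058 in larval brain, a difference of 1.52 ± 0.52. Both c and d lay above both a and b for this gene. SmF had 1619, 1711, 2732 and 1659 and then 5528, a difference of 1.53 ± 0.41. Array c was the high one among the embryo culture arrays, and the groups did not overlap. SmD1 had 1326, 1457, 1671 and 1811 against 3641 in larval brain, a difference of 1.20 ± 0.37. SmD2 had 1383, 1491, 1727 and 1364 against 2971, a difference of 0.98 ± 0.36. These last pairs were among the evenest across embryo culture, with the highest array 1.37 and 1.27 times the lowest. A second SmD2 probe set had 135, 95.2, 134 and 60.1 and then 59.7, above background on embryo culture array c alone, so it gave no measure of the gene in larval brain.

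Of the LSm genes, 2 were measured. LSm7 belongs to the ring on U6 and to the cytoplasmic ring that promotes decapping of messenger RNA, whereas LSm1 belongs to the cytoplasmic ring and is a member by its name rather than by a role in splicing. LSm1 had 778, 1098, 847 and 910 on arrays a to d and 1237 in larval brain, a difference of 0.44 ± 0.40. LSm7 had 322, 665, 960 and 394 against 1126, a difference of 1.01 ± 0.59. In both cases larval brain exceeded the highest embryo culture array by less than the embryo culture arrays differed among themselves.

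snRNP-U1-70K, the U1 protein that contacts SR proteins, was the one U1 protein measured. Its intensities were 434, 659, 422 and 95.1 on arrays a to d and 1061 in larval brain, a difference of 1.51 ± 0.79. Array d was low and under its background, and larval brain was 1.61 times the highest array, b.

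Of the 8 measured genes of U2 proteins, 5 lay above the embryo culture range and 3 inside it. Sf3b6, the small SF3b subunit that lies at the branch point adenosine in the human complex, had 423, 553, 702 and 398 on arrays a to d, and 4691 in larval brain. Larval brain was 6.68 times the highest embryo culture array, and the difference of 3.10 ± 0.45 was the largest of all members (adjusted p = 0.0064). U2A, the U2 A′ protein, had 58.5, 85.8, 144.6 and 138.1 and then 858, a difference of 2.60 ± 0.67 with an adjusted p of 0.0804. Only array c measured U2A above background in embryo culture, so the size of this difference is uncertain on the low side. Sf3b2 had 384, 364, 219 and 111 against 1013, a difference of 1.85 ± 0.67 (adjusted p = 0.211). Array d, where Sf3b2 was under background, was the lowest.

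Sf3a1, Sf3b5 and 3 further U2 genes had smaller differences. Sf3a1, a subunit of SF3a, had 360, 357, 765 and 963 and then 1510, a difference of 1.36 ± 0.59, and Sf3b5 had 600, 483, 892 and 879 and then 1838, a difference of 1.35 ± 0.46. For both genes c and d were the higher embryo culture arrays, and larval brain lay above them. Sf3b1, the largest SF3b subunit, had 903, 522, 658 and 110 on arrays a to d and 635 in larval brain, which sits inside that range (0.46 ± 0.86). Its value on d was under background. Sf3b3, another large SF3b subunit, had 271, 160, 770 and 405 and then 700 (0.92 ± 0.72), with b under background, and Sf3a2 had 1858, 2532, 2537 and 1307 and then 2461 (0.30 ± 0.45). The 5 measured SF3b subunits thus had differences from 0.46 to 3.10 on this array. Whether these differ from each other was not tested. Sf3b1 turned to -0.09 without array d, and Sf3b3 to -0.37 with the 3′ bias covariate that is described with the control transcripts.

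The 3 genes that recognise the branch point and the intron's end all lay above the embryo culture range, and none passed the threshold. U2af50, the large U2AF subunit, which binds the polypyrimidine tract, had 3096, 1861, 2088 and 1234 on arrays a to d and 5600 in larval brain, a difference of 1.49 ± 0.49 (adjusted p = 0.16). U2af38, the small subunit, which binds the AG at the intron's end, had 157, 454, 640 and 252 against 1376, a difference of 1.90 ± 0.68 (adjusted p = 0.203). SF1, the branch point binding protein, had 158, 325, 190 and 565 against 937, a difference of 1.60 ± 0.68 (adjusted p = 0.288). The embryo culture arrays were in different orders for these 3 genes, with a highest for U2af50, c for U2af38 and d for SF1. The highest array was 2.51 times the lowest for U2af50 and 3.57 times for SF1, and array d was under background for U2af38.

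Among the 10 Prp genes, 7 lay above the embryo culture range, 2 within it and 1 below, with a median difference of 1.19 and none past the threshold. Prp8, the U5 protein at the catalytic centre, had 645, 585, 750 and 824 on arrays a to d and 1817 in larval brain, a difference of 1.33 ± 0.41 (adjusted p = 0.133). Prp19, a ubiquitin ligase that gives the Prp19 complex its name, had 1079, 1403, 1751 and 1397 and then 3303, a difference of 1.22 ± 0.39 (adjusted p = 0.152). Prp18, a factor of the second catalytic step, had 219, 387, 504 and 457 and then 1167, a difference of 1.52 ± 0.54 (adjusted p = 0.203). For each of the 3, the larval brain value was more than the highest embryo culture array by a wider margin than the embryo culture arrays spanned.

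Prp3 and Prp6 are proteins of the complex of U4, U6 and U5. Prp3 had 184, 251, 102 and 372 on arrays a to d, with c under background, and 600 in larval brain (1.34 ± 0.69). Prp6 had 1098, 942, 1845 and 1513 and then 1408, inside the range (0.11 ± 0.45, and -0.04 without array b). Both Prp39 and Prp40 are U1-associated in yeast. Prp39 had 435, 561, 352 and 343 against 981 (1.15 ± 0.48), and Prp40 had 656, 726, 505 and 167 against 1165 (1.27 ± 0.69), with array d under background. Their larval brain values lay above the range in each case.

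The helicase genes Prp5 and Prp16, whose products act in yeast at branch point selection and before the second catalytic step, had differences smaller than their SEs. Prp5 had 250, 230, 176 and 167 and then 291 (0.44 ± 0.61), with array d under background. Prp16 had 980, 1076, 311 and 334 and then 778 (0.39 ± 0.71), with a and b far above c and d, and turned to -0.38 against a and b alone. The other probe sets of Prp16, a pair, did not exceed background anywhere in embryo culture and reached 102 and 35.9 in larval brain. Prp4k, a protein kinase that phosphorylates spliceosomal proteins in human cells, was the exception in direction: it had 1415, 493, 320 and 414 on arrays a to d and 213 in larval brain, a difference of -1.22 ± 0.72 (adjusted p = 0.474). Larval brain lay below each of the 4 arrays, but the size rests on array a, without which the difference was -0.79, and with 3′ bias as a covariate it was 0.02.

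Of the SR and related genes, B52, the fly SRp55 protein, had 3856, 3121, 3130 and 1583 on arrays a to d and 10249 in larval brain. This was 2.66 times the highest embryo culture array, a difference of 1.86 ± 0.50 that missed the threshold with an adjusted p of 0.0879. In 3 of the 13 alternative fits B52 passed, including the fit with 3′ bias as a covariate. tra2, the splicing factor that works with tra in female sex determination, had 369, 294, 230 and 270 against 697, a difference of 1.15 ± 0.53, with array d just under background. SF2, a general SR protein, had 2408, 2026, 2916 and 1663 against 2169, inside the embryo culture range. Its difference was -0.02 ± 0.41, which turned to 0.10 with median centring, and the SE leaves room for changes in either direction.

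Set against each embryo culture array alone, larval brain was higher for 29, 30, 27 and 31 of the 33 genes for a, b, c and d. Over all 10844 genes the counts were 5283, 5105, 5712 and 4644. The median differences of the members were 1.40, 1.29, 1.10 and 1.21, where all genes had -0.03, -0.07, 0.05 and -0.18. Every Sm gene and all of SF1, U2af38 and U2af50 were higher in larval brain than on each of the 4 arrays. The Sm median ran from 1.05 against c to 1.78 against a, and the U2 median from 0.97 against c to 1.84 against b.

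**Figure D3:**
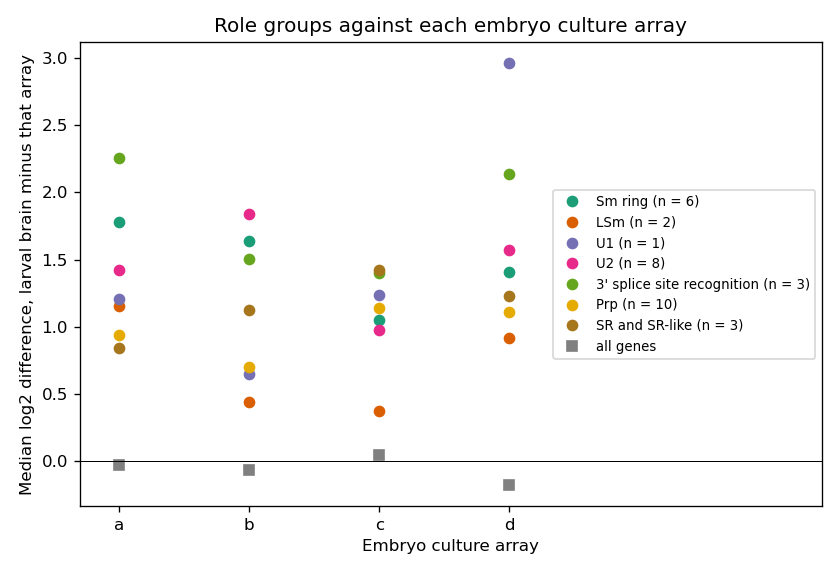
Median log2 difference of the larval brain array from each embryo culture array for the 7 role groups, with the number of genes in each, and for all genes (grey squares). Role group medians lie between 0.37 and 2.96 and those of all genes between -0.18 and 0.05. The value of 2.96 is that of the 1 U1 gene against array d, where it was under background. The value of 0.37 is that of the 2 LSm genes against array c.

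Among the embryo culture arrays alone, the members did not all move the same way. Their median SD on the log2 scale was 0.47, the same to 2 decimals as that of all genes. Array d was the lowest array for 13 members, or 39.4%, and for 22.3% of all genes, and the median deviation of the members on d from the embryo culture mean was -0.22, where all genes had 0.09. Array c was the highest for 14 members and for 2230 of all 10844 genes. The median deviation of the members on c was 0.21, where all genes had -0.09. Of the 23 members above background on all arrays, Prp4k had the widest spread within embryo culture, with the highest array 4.42 times the lowest. The other 10 members were under background on 1 or more embryo culture arrays, so their low values, such as those of Sf3b1 and snRNP-U1-70K on d, do not measure how far the arrays lay apart. Arrays a and b both lay above c and d for 10 members and both below for 9, which are 30.3% and 27.3% of the members against 22.2% and 22.7% of all genes. SmB, Prp16 and Sf3b2 were among the former and SmE, SmD1 and Sf3b5 among the latter.

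Arrays a and b differ from c and d in the ratio of 3′ to middle signal of control transcripts, which grows as the 5′ side of messenger RNA is lost. The mean log2 ratio of actin, eIF-4a and GAPDH was 2.45, 2.35, 1.495 and 1.66 for arrays a to d and 1.15 for larval brain, so group and ratio move together. The median difference of the members was 1.33 with arrays a and b as the embryo culture group and 1.16 with c and d. With the ratio as a covariate, a fit that extrapolates beyond embryo culture, it was 1.11. Sf3b6, SmB and SmD3 passed the threshold in all 3 of these fits.

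Some markers of cell types differed between the groups as well, and others lay within the embryo culture range. The neuronal marker elav was under background on embryo culture arrays a and b, at 103.8 and 61.4, and had 713 and 667 on c and d and 3047 in larval brain. Of 6 measured neuron markers 4 lay above the embryo culture range, and their summed intensity was 1736 to 5571 in embryo culture against 8074, of which elav made up 3047. Syn went the other way, with 310, 170, 801 and 497 on arrays a to d and 138 in larval brain, below all 4, and nrv3 lay within the range. The sum of the 7 progenitor markers was 1559 to 2172 against 7229 in larval brain, of which pros, the one past the threshold, made up 3835 and mira 1911. Of the other progenitor markers wor lay above the embryo culture range and ase, dpn, grh and insc within it, with grh and insc negative. The 6 gut or epidermis markers summed to 13656 to 22942 in embryo culture and 2593 in larval brain, with hoka, mesh, Tsp2A and Jon65Aiv past the threshold as lower. The sums of 7 glia markers were 1679 to 2485 and 2068, of 5 hemocyte markers 340 to 2683 and 700, of 3 muscle markers 538 to 4180 and 383, and of 3 fat body markers 476 to 681 and 305. Of the hemocyte markers Hml and srp lay below the embryo culture range and NimC1, Ppn and Pxn within it. Pxn made up 450.5 of their sum in larval brain. Among glia markers gcm and alrm lay above the embryo culture range and Gs2 and moody below it. gcm was under background throughout embryo culture and had 674 in larval brain. The sums include values under background, and grh counts among both progenitor and gut or epidermis markers. The cholinergic markers ChAT and ChT summed to 1892 to 4320 and 3327. No marker was listed at 0. The part of cell makeup in the member differences was not tested.

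Other genes of the splicing pathway, on a list of 72 of which 48 were measured, had a median difference of 1.08. Of them 43 were positive, 33 lay above the embryo culture range and 3 below it, and 5 passed the threshold as higher and 0 as lower. Over all genes 46.3% were positive, 26.2% lay above the range and 29.6% below it, and 0.812% passed as higher and 2.78% as lower. This list too was chosen with earlier results known, so its counts are a description. By sub-list, 2 of 7 SR-related genes, 2 of 10 hnRNP genes and 1 of 12 genes of U5, its partner complexes and helicases passed as higher. None passed among 2 exon junction, 7 SMN complex and 10 sex and neuron splicing genes.

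Those 5 genes follow. SC35, an SR protein, had 810, 840, 714 and 771 on arrays a to d and 3949 in larval brain (2.27 ± 0.37, adjusted p = 0.012). The hnRNP gene Hrb98DE had 1434, 1384, 1244 and 756 and then 9153 (2.92 ± 0.44, adjusted p = 0.00738). Pep, listed with the hnRNP genes, had 766, 1355, 861 and 933 and then 3840 (1.95 ± 0.42, adjusted p = 0.04). All 3 were above background on every array, and larval brain lay above every embryo culture array. A second SC35 probe set, above background in embryo culture on c alone, had a difference of 0.58 ± 0.73.

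The remaining 2, fand and Srrm1, did not exceed background anywhere in embryo culture, so only a bound can be given. The bound is the geometric mean of the 4 embryo culture backgrounds, 176. Larval brain was 2.24 times this bound for the Prp19 complex gene fand, at 393. For the SR-related Srrm1, at 351, it was 2.0 times the bound. Against the highest of these backgrounds alone, 271 on array d, the values were 1.45-fold and 1.29-fold. The adjusted p-values of fand and Srrm1, 0.00575 and 0.0192, come from the limma fit to embryo culture values under background. They do not refer to these folds. Among genes not past the threshold, tsu, an exon junction protein, had 595, 719, 416 and 384 against 2123 (1.95 ± 0.47), and btz had a difference of 0.59 ± 0.45. BCAS2 gave different answers by probe set: the one used had a difference of 0.31 ± 0.41 and the other 2.39 ± 0.49 (adjusted p = 0.0345). Bx42 and heph turned in direction: the ones used had 0.97 ± 0.44 and 0.96 ± 0.56, above the embryo culture range. Their second probe sets, above background on every array, had -0.63 ± 0.50 and -0.33 ± 0.54, below it. Those of Sxl gave 0.56 ± 0.47 and 0.54 ± 0.57. The counts of this list therefore depend on the probe set used.

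Genes that assemble the Sm ring were mixed. icln, a chaperone of Sm proteins, had 664, 919, 468 and 994 on arrays a to d and 2523 in larval brain (1.72 ± 0.48), and Smn had 899, 1352, 286 and 571 and then 2195 (1.63 ± 0.69). Gem3 and csul, a helicase of the SMN complex and an arginine methyltransferase that acts on Sm proteins, had differences of -0.51 ± 0.63 and -0.32 ± 0.52. The median of the 7 genes was 0.27. The 10 sex and neuron splicing regulators had a median of 0.68, with 6 above the embryo culture range and 4, mbl, nonA, vir and Rbp9, within it. The highest were elav and tra, at 3.33 ± 1.05 and 1.65 ± 0.58, each above background on 2 of the 4 embryo culture arrays, and the lowest was Rbp9, at -0.52 ± 0.80 and under background on every array.

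**Figure D4:**
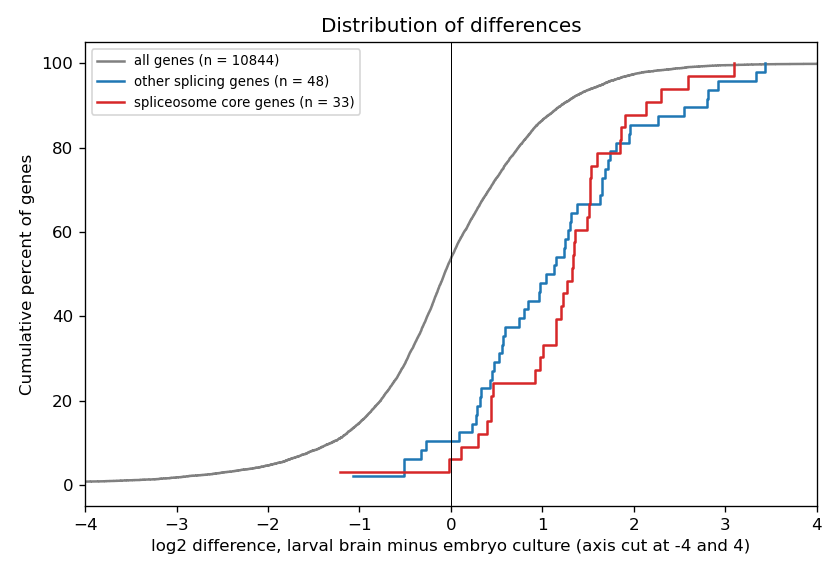
Cumulative percent of genes by log2 difference, larval brain minus embryo culture, for the 33 members, the 48 other splicing genes and all 10844 genes, with the horizontal axis limited to -4 to 4. The medians of the curves are 1.33, 1.08 and -0.07.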

How the data were processed

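The authors deposited a linear intensity for each probe set on each array, scaled so that after trimming 2% at each end every array has a mean of 500.06 to 500.08. That scaling is seen from the values. What software made them, and on which genome build, is not given in the sources used here. Of 14010 probe sets, 44 are controls and 13966 were tested. The annotation gives 12443 of these 1 symbol, 327 several and 1196 none. Symbols were updated through Entrez identifiers for 12394, which changed 0, against a RefSeq table on Drosophila Release 6.

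Intensities were tested as log2(intensity + 47.4), the 20th percentile of all values, with limma 3.58.1 in R 4.3.3 (lmFit, eBayes with a trend, two-sided) and Benjamini-Hochberg adjustment over all probe sets at a threshold of 0.05. The spread comes from embryo culture, with 3 residual degrees of freedom (9.11 after moderation). With 5 arrays the precision is low: the median SE was 0.58. Where a gene had more than 1 probe set, that with the highest average of both group means (log2) stood for it. The fit was also run on simulated data in which larval brain varied like embryo culture, so that assumption was not tested. Tables and plots used Python 3.11.15, NumPy 2.4.6, pandas 2.3.3 and matplotlib 3.10.9.

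Members, role groups, lists and alternatives were chosen with earlier results of these data known. Named genes were those past the threshold, the 12 members with the largest differences, the Sm, U2AF and SR genes and SF1, and the other members were then added so that every member is given. Of other splicing genes those past the threshold were named, and examples from the sub-lists without one were added after their values were seen. Cell type markers and background control probe sets were used as described with the values. No sequences are shown.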

Additional observations from a re-analysis of the deposited data

Results flagged for a closer look

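In 3 of the 33 member genes, 1 embryo culture array lay far from the other 3: its gap to the nearest of them was, as a share of the group's whole range, past Dixon's critical value for 4 values. Chance alone marks about 1 group in 20 if values are normally distributed. The check used linear intensities, for which this rate need not hold. It was made on the 33 members alone, so no share of all genes stands beside this count. Prp4k had 1414.8 on array a, with the next value at 493.1, SmD3 had 1231.6 on array b, with the next at 656.6, and SmF had 2731.6 on array c, with the next at 1711.3. A different array stood out for each gene. Without array a, the difference of Prp4k went from -1.22 to -0.79. For SmD3 and SmF the larval brain value lay above the high array itself.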

How the results depend on the processing

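The count of members higher in larval brain was 3, and 1 without the variance trend, 13 with embryo culture arrays a and b alone and 6 with c and d alone. Over all 10844 genes 390, 266, 1458 and 690 passed in either direction in these fits, so more of all genes passed with only 2 embryo culture arrays. The count of members ran from 1 to 3 when 1 embryo culture array was left out, with 1 (Sf3b6) without d. That of all genes then ran from 254 to 342. No alternative gave a member that was lower. The median difference of the members, 1.33, was 1.17 with the pseudocount at the 40th percentile, 1.16 with arrays c and d alone and 1.11 with the 3′ to middle ratio as a covariate, and ran from 1.11 to 1.45 over 15 alternatives. The cause of these shifts was not tested. The difference of SF2, -0.02, was 0.10 with median centring and ran from -0.16 to 0.11 across the fits without 1 array. Other members turned in direction, none of them past the threshold in any fit: with the 3′ ratio as a covariate Prp4k was 0.016, Prp6 -0.60 and Sf3b3 -0.37, with a and b alone Prp16 was -0.38 and Sf3b1 -0.11, and with c and d alone Prp6 was -0.24. Without 1 array Prp6 ran from -0.044 to 0.27 and Sf3b1 from -0.089 to 0.78. Of the 33 members 27 had a positive difference in each of 13 alternative fits, a count that was not made over all genes. Median centring moved the median of all genes from -0.07 to 0.05. Ignoring letter case in the rule added 4 genes, Lsm10, Lsm11, Lsm12a and smg, the last not an Sm protein, and gave a median of 1.27. U2A passed when dim probe sets were left out. Signals under background on 1 or more embryo culture arrays limit 10 members, U2A, U2af38, Prp3, Prp5, Prp40, tra2, snRNP-U1-70K, Sf3b1, Sf3b2 and Sf3b3. No paired analysis was possible because the groups share only 1 replicate letter.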
